A study of Mus musculus with 30 samples.

Results

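Spinal cord RNA of Gaa knockout (KO) mice that had received a gene therapy vector was compared with that of wild-type (WT) mice of the same mixed background. The comparison took its members from the group labels alone: 6 of the 30 libraries of the study, 3 of treated KO mice and 3 of WT mice, and 15838 of 17420 listed genes, those whose level reached 1 in 3 or more cord libraries. The WT mice (animals 1, 3 and 4, labelled Gaa WT) and the treated KO mice (animals 21, 22 and 24, labelled Gaa KO) were males aged 4 months on B6;129;DBA2/J, and all were labelled Ltbp4D36/D36, an allele of a latent TGF-beta binding protein. On postnatal day 1 to 2 the treated mice had been given an AAV9 vector into the temporal vein, which encodes a secreted human GAA under LiMP, a promoter for liver and muscle. The WT mice were untreated, so genotype and vector differ together in this comparison. For reference the same fit held 3 untreated KO mice of that background (animals 6, 7 and 8) and 3 KO and 3 WT mice on B6;129 without the Ltbp4 label. No treated B6;129 group is among the samples analysed here. Quadriceps of the same animals made up the other 15 libraries.

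Gaa encodes acid alpha-glucosidase, which breaks down glycogen inside lysosomes. Its loss is the cause of Pompe disease, in which glycogen-filled lysosomes build up in muscle and also in motor neurons, other neurons and glia of the spinal cord. An enzyme made by liver or muscle and secreted into blood can be taken up by other cells through the mannose 6-phosphate receptor, but the blood-brain barrier limits what reaches the cord. Injury or storage in the cord is commonly accompanied by reactive astrocytes, which raise the filament protein Gfap, and by activated microglia, the resident macrophages.

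The values are the deposited normalized count (called signal here), which is not corrected for gene length, so levels are compared between libraries and not between genes. Differences are log2(signal + 0.5) of treated KO minus WT unless another pair is named, with the standard error (SE) of a limma fit of all 15 cord libraries in 5 groups of 3. A gene was called at an adjusted p (Benjamini-Hochberg over all 15838 genes) under 0.05. Values are given in the order of animals 1, 3 and 4 for WT and 21, 22 and 24 for treated KO. Each library has its own animal number in the labels. The p-values rest on the spread between animals within a group, pooled over all 5 groups of the fit. That spread thus includes groups outside the comparison, among them those of the other background, and is not that of the WT and treated animals alone.

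The 6 libraries held 21745321 to 26136178 reads each, so 1 read is worth a signal of 0.0288 to 0.0359. Mitochondrial genes took 13.2% to 17.0% of the reads, against 6.99% to 7.70% in the 6 cord libraries of B6;129. Cord was recognisable in every library by its Hox genes and by the cholinergic motor neuron enzyme Chat, at a signal of 7.99 to 10.8 in the 6 libraries. The libraries differed in how much nerve root and muscle they held. Summed over 10 Schwann cell genes, markers of peripheral nerve, the signal was 469 and 471 in WT animals 1 and 4 but 949 in WT animal 3, and 760, 674 and 1496 in treated animals 21, 22 and 24. Over 13 skeletal muscle genes the WT sums were 741 (animal 1), 2292 (animal 3) and 263 (animal 4), and the treated sums 262, 415 and 1880. Animals 3 and 24 thus stood apart from their group mates, 1 in each group. Counts were therefore also made without both of them, and 1838 genes were then called in place of the 2654 given next.

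**Figure D1:**
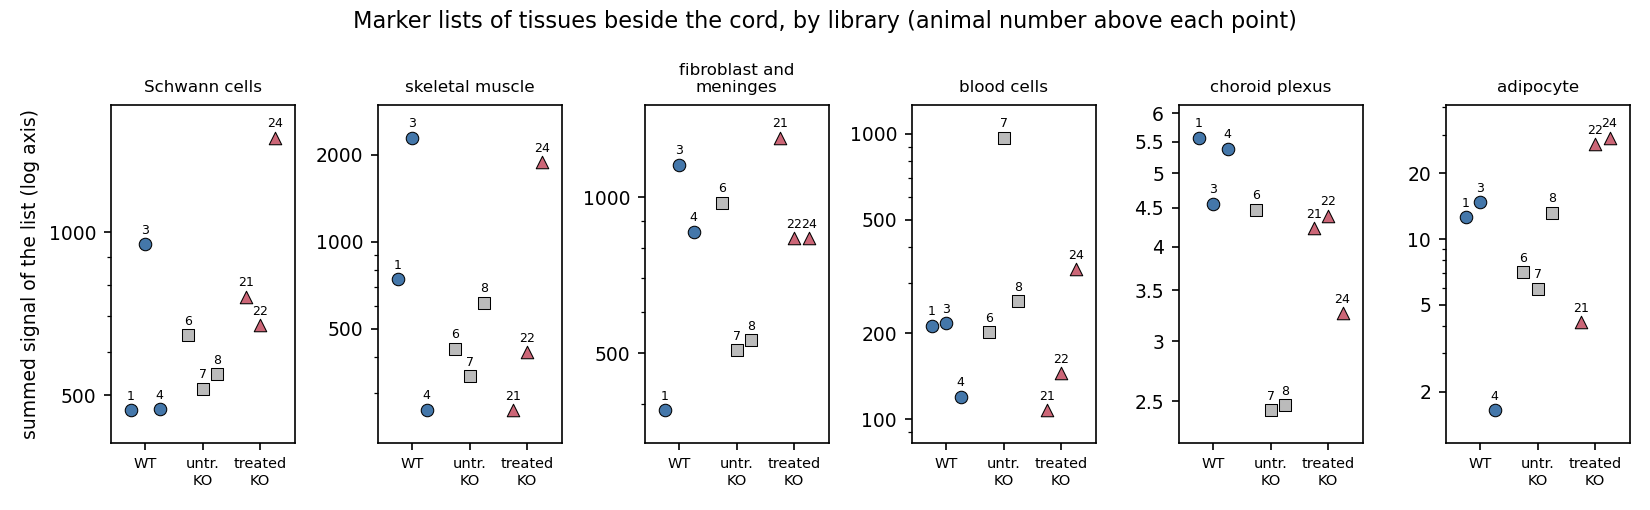
Summed signal (log axis) of 6 marker lists for tissues beside the cord in each library of the mixed background, with the animal number above each point. WT animal 3 and treated animal 24 have the highest Schwann cell sums of their groups, 949 and 1496, and the highest skeletal muscle sums, 2292 and 1880.

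The targeted gene matched its labels. Gaa (chr11:119267887-119285454, GRCm38) stood at 131, 139 and 144 in the WT libraries and at 9.27, 10.3 and 8.09 in the treated libraries, with no overlap. The difference was -3.84 ± 0.09 (SE, n = 3 each), or 14.3-fold lower in treated KO (limma, adjusted p = 2.26e-12). The counted gene is the mouse gene, and whether reads of the human transgene were assigned to it was not checked. Ltbp4, whose allele is shared by both groups, stood at 11.6, 13.6 and 10.6 in WT and 17.1, 17 and 17.3 in treated KO, a difference of 0.51 ± 0.11 (adjusted p = 0.00831). In untreated KO cords Ltbp4 stood at 20.6, 16.4 and 14.5.

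Treated and WT cords differed at 2654 of 15838 genes (16.8%), 1395 higher (8.81%) and 1259 lower (7.95%) in treated KO. The counts of called list members below are to be read beside these shares. Most of these differences were small: the median fold was 1.27, 2196 of the called genes (82.7%) lay under 1.5-fold, and 111 (0.701%) over 2-fold, 67 higher and 44 lower. After each library was shifted to the same median, 1127 genes were higher and 1606 lower, so the balance of directions depends on the scaling. The 3 treated and 3 WT libraries did not overlap at 4785 genes (30.2%; 14.7% with treated KO higher and 15.5% lower), 4921 (31.1%) had an unadjusted p under 0.05, and the median difference over all tested genes was -0.00305. With the 6 libraries alone 531 genes were called, in a fit with fewer degrees of freedom and a spread taken from these 6 only. Leaving WT animal 4 out of the full fit gave 1462. In the same fit, untreated KO cords of the mixed background differed from the same WT cords at 2061 genes (13%), 1134 higher (7.16%) and 927 lower (5.85%). KO cords on B6;129 differed from their own WT at 183 (1.16%), 158 higher (0.998%) and 25 lower (0.158%). The treated and untreated comparisons share the 3 WT libraries, so their values stand side by side below without a test of likeness. Of treated against untreated KO, 0 genes were called (0%, smallest adjusted p = 0.0535), with 1697 (10.7%) at an unadjusted p under 0.05, against 2 genes with edgeR and 155 with DESeq2.

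**Figure D2:**
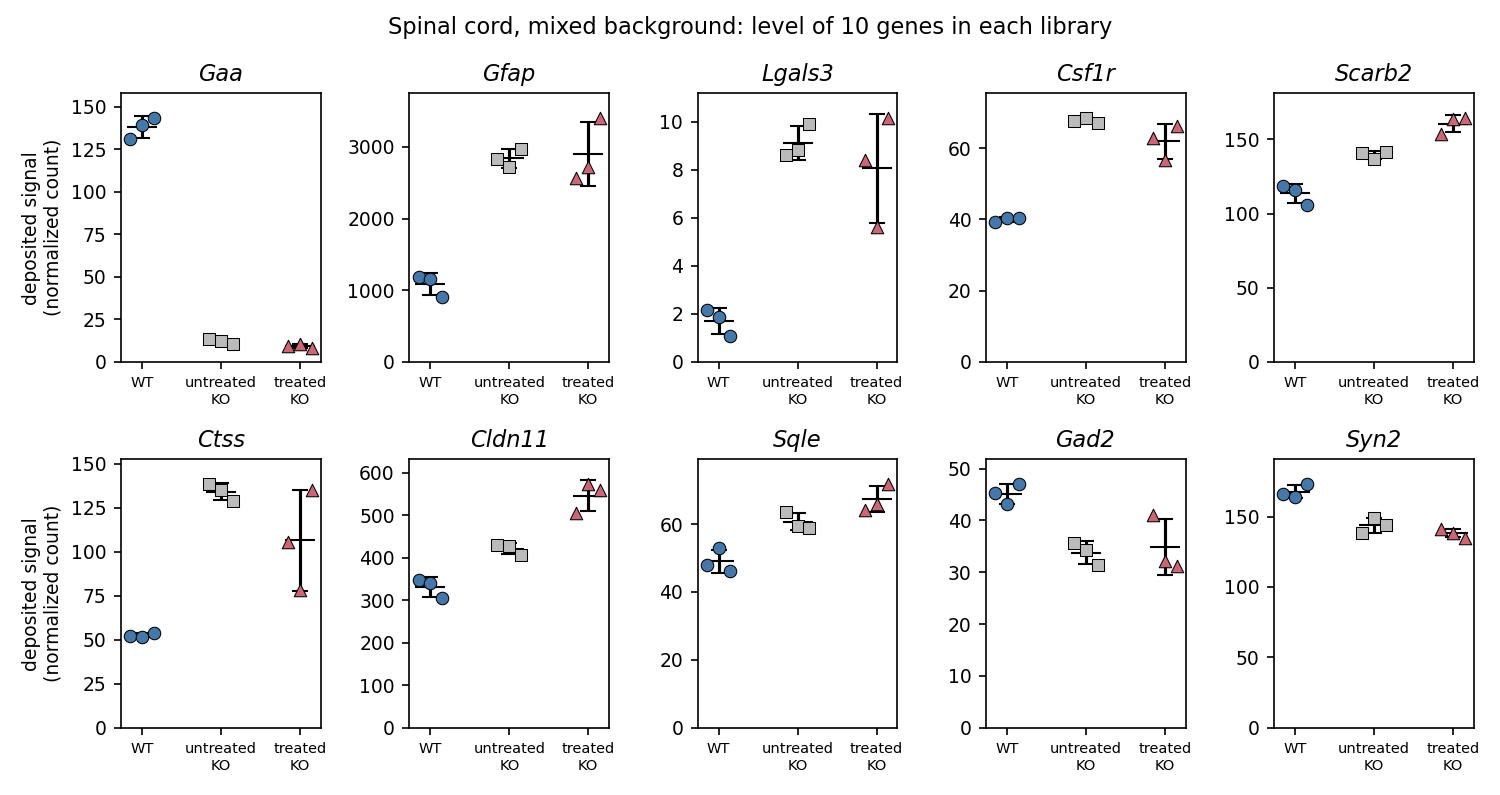
Level of 10 genes in each cord library of the mixed background (points, deposited signal), with the mean and SD of 3 libraries (bars). Gfap lies between 904 and 1184 in WT and between 2572 and 3406 in treated KO, with untreated KO beside the treated libraries, and Gad2 and Syn2 are lower in treated KO than in WT.

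Reactive astrocyte genes were among the most raised groups in treated cord. Of 14 tested members, 7 were called higher and 0 lower, 14 of 14 had a difference above 0, and the list's median was 0.75 against -0.00305 for all genes. Gfap, the intermediate filament by which reactive astrocytes are recognised, stood at 1184, 1154 and 904 in WT and 2572, 2713 and 3406 in treated KO. Every treated library was above every WT library by more than the range within either group, a difference of 1.42 ± 0.13 (adjusted p = 5.03e-05). Vim, a second filament of reactive astrocytes that endothelial and immune cells also make, went from 48.9, 75.6 and 43.3 to 126, 105 and 151 (1.21 ± 0.18, adjusted p = 0.00098), and WT animal 3 was the highest of the WT libraries. The complement component C3 stood at 49.2, 45.9 and 45.2 against 72.9, 88.3 and 109 (0.92 ± 0.12, adjusted p = 0.000429). For the small heat shock protein Hspb1 the values were 32, 36.1 and 34.4 against 49.3, 58 and 53 (0.64 ± 0.07, adjusted p = 0.000221). Cd44, the hyaluronan receptor, was higher by 0.89 ± 0.16 (adjusted p = 0.00254) and Osmr, the oncostatin M receptor, by 0.77 ± 0.14 (adjusted p = 0.00263). Aspg was higher by 0.89 ± 0.23, but its call was lost without WT animal 4. The acute-phase inhibitor Serpina3n was not called (1.06 ± 0.36, adjusted p = 0.0582), nor was Lcn2, the lipocalin of acute inflammation (0.05 ± 0.38). In bulk tissue, more cells of a type and more RNA per cell cannot be told apart, here or in any result below, nor can fewer cells and less RNA per cell.

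Genes of resting astrocytes were raised less. In that list 6 of 15 were called higher and 0 lower, with a median of 0.27, and 3 were called without treated animal 22. With the 6 libraries alone 0 were called higher. Glul, the enzyme that turns glutamate into glutamine, was higher by 0.41 ± 0.08, the water channel Aqp4 by 0.54 ± 0.12, and the neurotensin receptor Ntsr2 by 0.29 ± 0.06. In untreated KO the medians of the reactive and resting lists were 0.81 and 0.06, with 9 and 2 members called higher, and on B6;129 they were 0.59 and 0.12, with 6 and 1.

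Microglial genes were higher throughout the list of resting microglia. All 15 tested members had a difference above 0, 11 were called higher and 0 lower, and the median was 0.62. Csf1r, the receptor on which microglia depend for survival, stood at 39.2, 40.3 and 40.2 in WT and 62.7, 56.7 and 66.3 in treated KO (0.62 ± 0.05, adjusted p = 2.93e-05). The purinergic receptor P2ry12 went from 12.8, 14.3 and 12.9 to 21.5, 21.3 and 25.2 (0.74 ± 0.09, adjusted p = 0.000243). Tmem119, which marks resident microglia against blood-derived macrophages, went from 10.9, 8.86 and 10.7 to 19.9, 18.6 and 15 (0.78 ± 0.11, adjusted p = 0.00069). None of these 3 genes overlapped between the groups. Olfml3, a secreted protein of microglia, was higher by 0.98 ± 0.16 (adjusted p = 0.00137). Without the library of any single animal at least 8 of the 15 were called, and 5 with the 6 libraries alone.

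Activation genes of microglia, those of the disease-associated state, were called higher at 11 of 20 and lower at 0, with a median of 0.42. Lgals3, the galectin that binds damaged lysosomes, had the largest difference of the list, with 2.14, 1.86 and 1.09 in WT and 8.4, 5.64 and 10.2 in treated KO (1.96 ± 0.21, adjusted p = 0.000109). Trem2, the lipid receptor of activated microglia, stood at 6.46, 7.45 and 7.6 against 11.3, 8.94 and 15.2 (0.65 ± 0.14, adjusted p = 0.00742). Its signalling partner Tyrobp stood at 10.01, 10.4 and 10.2 against 15.8, 12.8 and 20.5 (0.63 ± 0.14, adjusted p = 0.00771). In these genes treated animal 22 was the lowest and animal 24 the highest of the treated libraries. Csf1, the ligand of Csf1r, was also higher (28.2, 24.6 and 21.7 against 35.6, 34.9 and 37.6, 0.54 ± 0.09, adjusted p = 0.00191), as was the lipid carrier Apoe (0.34 ± 0.07, adjusted p = 0.00606, not called after quantile normalization or with the 6 libraries alone). Gpnmb, a glycoprotein of macrophage lysosomes, was not called and varied within groups: 2.51, 1.97 and 1.53 in WT, 5.26, 0.0176 and 0.126 in treated KO and 0.121, 4.52 and 4.44 in untreated KO. Gpnmb is also on a list of genes known to vary between mouse strains, and the background here is mixed. Whether its allele differed between these animals was not tested, so its values do not speak to the state of microglia. With the 6 libraries alone 3 members of this list were called.

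Complement and antigen presentation followed with fewer calls. Of 14 complement genes 5 were called higher and 0 lower, with a median of 0.55. C1qa, a chain of the initiating C1q complex, stood at 26.3, 29.7 and 32.4 in WT and 56.7, 45.2 and 64.3 in treated KO (0.89 ± 0.12, adjusted p = 0.000539), and C4b at 47.8, 55.8 and 46.3 against 93.7, 116 and 178 (1.31 ± 0.18, adjusted p = 0.000618). Itgb2, the shared chain of the phagocyte integrins, was higher by 0.58 ± 0.15, a call that ended without treated animal 24 or WT animal 3. In the list of MHC class I and interferon genes 23 of 23 had a difference above 0 with a median of 0.36, but 6 were called, and 3 without WT animal 4 or without treated animal 22. B2m, the invariant chain of MHC class I, stood at 68.5, 92.1 and 79.4 against 125, 101 and 185 (0.74 ± 0.17, adjusted p = 0.0113), and Tapbp, which loads its peptides, was higher by 0.31 ± 0.07. The interferon-induced Ifit3 was higher by 0.71 ± 0.20, and its call ended without WT animal 1 or 4 or treated animal 21 or 22. Of 6 MHC class II genes 1 was called, H2-DMa (0.49 ± 0.11). The T cell gene Cd3e lay at or under 0.510 in the 6 libraries, and of 2 tested T and B cell genes 0 were called. In untreated KO, 15 of 23 MHC class I and interferon genes were called higher (median 0.67) and 7 of 14 complement genes (0.51), and on B6;129 0 (0.13) and 6 (0.50). None of these medians was tested against another.

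**Figure D3:**
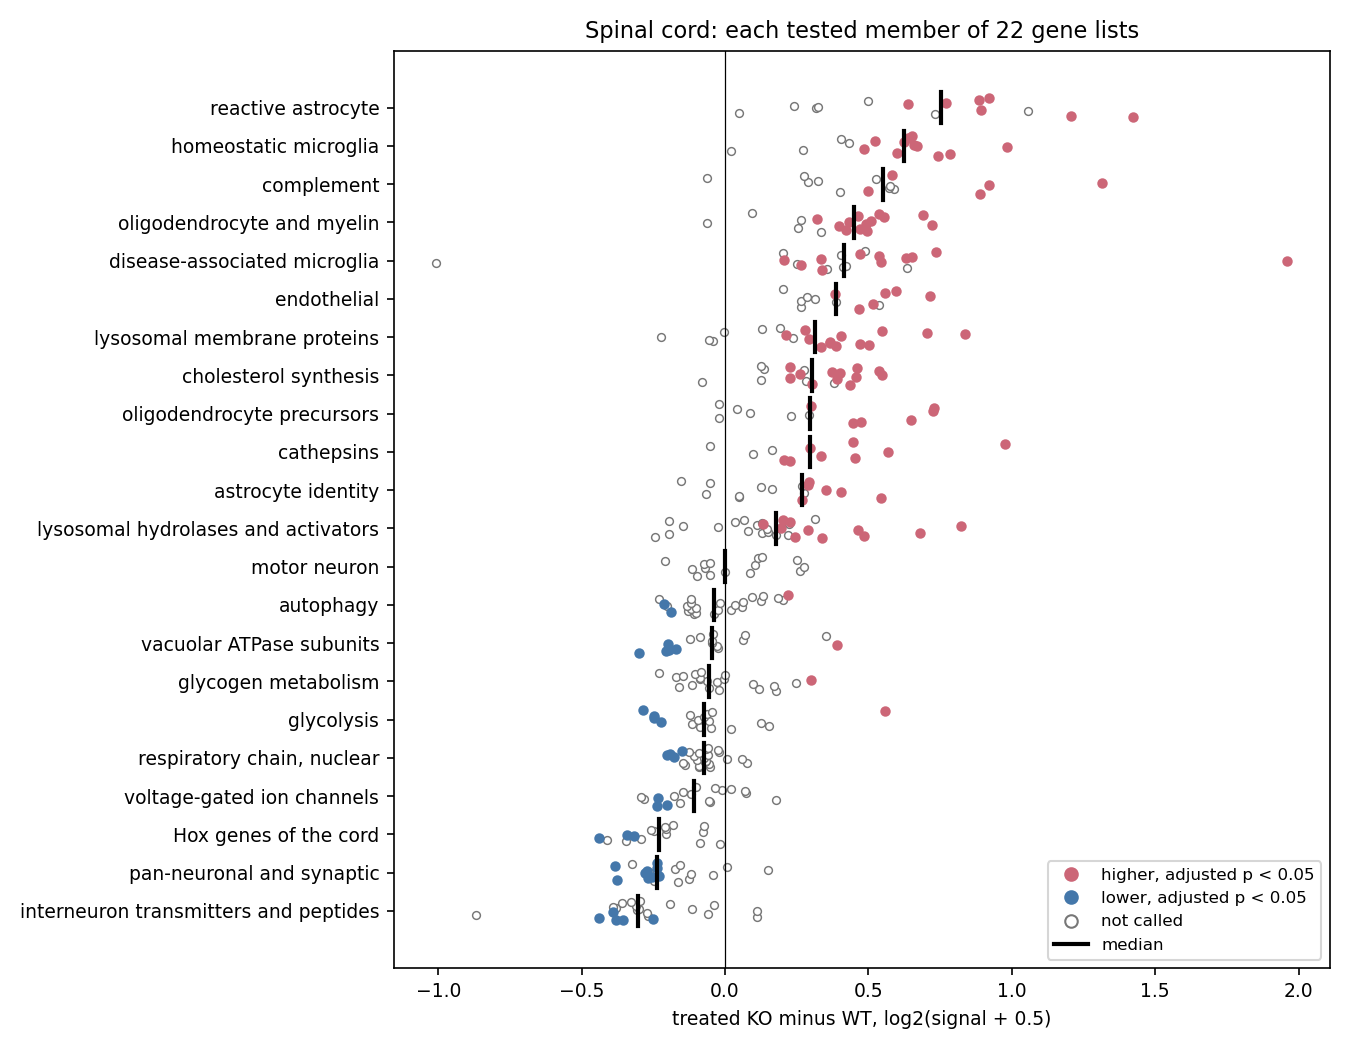
Difference of treated KO minus WT cord on the log2(signal + 0.5) scale for each tested member of 22 gene lists (points), filled where the gene was called and open where it was not, with the list's median as a black bar. Of the lists drawn, the reactive astrocyte list has the highest median (0.75) and the interneuron list the lowest (-0.30).

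Genes of lysosomal membranes and enzymes were raised in treated cord, and genes of the lysosomal proton pump were not. In a list of 20 genes for lysosomal membrane proteins 13 were called higher and 0 lower, with a median of 0.31. The list also holds Grn and Npc2, whose products are soluble and which are among the 13. Scarb2, which carries glucocerebrosidase to the lysosome, stood at 119, 116 and 106 in WT and 154, 164 and 165 in treated KO (0.50 ± 0.05, adjusted p = 0.000107). The abundant membrane proteins Lamp1 (409, 426 and 429 against 505, 516 and 574, 0.34 ± 0.05, adjusted p = 0.00129) and Lamp2 (79.5, 89.4 and 85.3 against 108, 106 and 119, 0.39 ± 0.05, adjusted p = 0.000569) were higher without overlap. Grn, which encodes progranulin, was higher by 0.55 ± 0.07 (adjusted p = 0.000561) and the macrophage protein Cd68 by 0.70 ± 0.11 (adjusted p = 0.00122). Over the 21 alternatives between 9 and 13 of the 20 were called higher.

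Of 11 cathepsins, the proteases of the lysosome, 8 were called higher and 0 lower, with a median of 0.29. Ctss, the cathepsin of microglia and macrophages, stood at 52.3, 51.5 and 53.8 in WT and 106, 78.4 and 135 in treated KO (0.98 ± 0.13, adjusted p = 0.000548). Ctsz was higher by 0.45 ± 0.07 and Ctsl by 0.29 ± 0.06. Ctsd, the aspartic protease found in nearly all cells, stood at 253, 277 and 309 against 348, 313 and 399 (0.34 ± 0.08, adjusted p = 0.0124), and its call ended when animals 3 and 24 were left out together. Without WT animal 1 the list had 4 calls, 5 without WT animal 4 or treated animal 24, and 2 with the 6 libraries alone.

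In a list of 29 lysosomal hydrolases and their activators, which shares Ctsa with the cathepsins, 11 were called higher and 0 lower, with a median of 0.18. Naglu, which degrades heparan sulfate, stood at 3.43, 3.47 and 4.26 against 7.18, 6.38 and 7.26 (0.82 ± 0.10, adjusted p = 0.000411). The mannosidase Man2b1 was higher by 0.68 ± 0.12 (adjusted p = 0.00216). The number of called hydrolases depended on single libraries: it was 3 without WT animal 1, 5 without treated animal 24 and 7 without treated animal 21 or 22. With the 6 libraries alone 2 were called higher. Part of this list is made by microglia more than by other cells of the cord, and their markers were higher in the same libraries (median 0.62 over 15); what part they have in the lysosomal result was not tested.

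The vacuolar ATPase, the proton pump that acidifies lysosomes and synaptic vesicles, did not share this direction. Of 16 subunits 5 were called lower and 1 higher, with a median of -0.05. Atp6v1a, the catalytic subunit, stood at 247, 262 and 269.7 in WT and 226, 209 and 199 in treated KO (-0.30 ± 0.06, adjusted p = 0.00453), below every WT library in each treated one. Atp6v1c1 (-0.19 ± 0.04), Atp6v1d (-0.17 ± 0.05) and the neuronal Atp6v1g2 (-0.20 ± 0.05) were lower, and Atp6v1g1 was higher (0.39 ± 0.11). The number called lower was 2 without treated animal 22 or 24 or WT animal 4, and Atp6v1d and Atp6v1g2 were among the calls lost. Atp6v1g1 lost its call without WT animal 1 or 4 or treated animal 22 or 24. In untreated KO 1 subunit was called in each direction (median 0.00).

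Of 25 autophagy genes 1 was called higher (4%) and 2 lower (8%), beside 8.81% and 7.95% over all genes. The median was -0.04, and after the median shift 0 were called higher and 5 lower. Gabarapl1, a coat protein of autophagosomes that neurons make at high level, stood at 458, 448 and 472 against 410.4, 406 and 374 (-0.21 ± 0.04, adjusted p = 0.00596). The protease Atg4b was lower (-0.19 ± 0.06) and the folliculin gene Flcn higher (0.22 ± 0.07), but both calls ended without several single libraries. These were WT animals 1 and 4 and treated animals 21 and 22 for Flcn, and WT animal 4 and treated animals 21 and 22 for Atg4b.

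Genes of lysosomes are known to share a short promoter element, the CLEAR motif bound by TFEB and its relatives, whose core TCACGTGA reads the same on both strands. RefSeq promoter windows (GRCm38.p6, 250 bases before to 50 after the start) were found for 47 of the lysosomal genes above, and 6 held the core (12.8%), against 304 of 27025 genes with a window (1.12%). Of those 6, Cln3, Ctsa and Ctsd were called higher in treated cord and Gla, Igf2r and Mcoln1 were not. Among all tested members 37.9% of the hydrolase list, 72.7% of cathepsins and 65% of the membrane protein list were called higher. Of 12 pump subunits with a window 3 held it (25%), and 0 of these were called higher. The stretches upstream of Cln3, Ctsa, Ctsd and the pump subunit Atp6v1a are shown 5′ to 3′ on the gene's strand with the core in capitals. These genes were picked by their calls, and whether the motif has a part in any difference was not tested. A match describes the letters in the window and shows no binding.
Cln3, chr7:126583311-126583398, minus strand: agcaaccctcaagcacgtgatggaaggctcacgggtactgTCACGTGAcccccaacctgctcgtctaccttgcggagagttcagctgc
Ctsa, chr2:164833720-164833772, plus strand: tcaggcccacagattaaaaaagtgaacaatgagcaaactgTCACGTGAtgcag
Ctsd, chr7:142387879-142387966, minus strand: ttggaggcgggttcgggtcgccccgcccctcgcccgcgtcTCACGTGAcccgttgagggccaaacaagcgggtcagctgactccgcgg
Atp6v1a, chr16:44139344-44139431, minus strand: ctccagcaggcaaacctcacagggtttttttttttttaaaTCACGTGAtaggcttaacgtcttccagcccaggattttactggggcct
The core ends 115 bases before the start in Cln3, 6 in Ctsa, 92 in Ctsd and 125 in Atp6v1a. Beside these sequences, Cln3, a lysosomal membrane protein of unsettled function, stood at 8.02, 6.9 and 8.07 in WT and 9.62, 9.79 and 9.02 in treated KO (0.29 ± 0.09, adjusted p = 0.0343). Ctsa, the protective protein of beta-galactosidase and neuraminidase, stood at 80.8, 86.2 and 82.6 against 93.2, 91.5 and 109 (0.23 ± 0.06, adjusted p = 0.0171). The Cln3 call ended without WT animal 3 or 4 or treated animal 21 or 22, and the Ctsa call without WT animal 1 or 4 or treated animal 24.

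Myelin genes were higher in treated cord. Of 18 tested genes of oligodendrocytes, the cells that wrap axons in myelin, 13 were called higher and 0 lower, 17 lay above 0 and the median was 0.45. Cldn11, the tight junction protein of myelin, stood at 348, 341 and 306 in WT and 506, 574 and 559 in treated KO (0.72 ± 0.08, adjusted p = 0.000159). Fa2h, which hydroxylates the fatty acids of myelin lipids, stood at 72.3, 76.7 and 67.8 against 106, 115 and 130.3 (0.69 ± 0.09, adjusted p = 0.000449). The adhesion protein Mag stood at 431, 381 and 387 against 522, 560.5 and 577 (0.47 ± 0.07, adjusted p = 0.000671), and the myelin proteolipid Mal, which Schwann cells also make, at 350.0, 332 and 338 against 431, 479 and 529 (0.49 ± 0.07, adjusted p = 0.000856). In all 4 the treated libraries lay above the WT libraries. Mbp, the myelin basic protein, overlapped between groups and was not called (0.33 ± 0.16, adjusted p = 0.164). Without animals 3 and 24, whose libraries held the most Schwann cell signal, 12 myelin genes were called, and 10 with the 6 libraries alone.

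In untreated KO 4 of the 18 myelin genes were called higher (median 0.16) and on B6;129 0 (median 0.00). Between treated and untreated KO no myelin gene passed the adjusted threshold: the difference was 0.44 for Mal (95% interval 0.28 to 0.59, adjusted p = 0.0696), 0.37 for Cldn11 (0.20 to 0.54, adjusted p = 0.109) and 0.42 for Fa2h (0.22 to 0.61, adjusted p = 0.111). A higher count against WT in treated than in untreated cord is therefore not shown to be a difference between the 2 KO groups.

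Precursors of oligodendrocytes were represented by 12 tested genes, of which 6 were called higher and 0 lower, with a median of 0.30. Enpp6, which marks newly forming oligodendrocytes, stood at 32.9, 29.8 and 23.2 in WT and 49.5, 41.8 and 51.1 in treated KO (0.73 ± 0.10, adjusted p = 0.000721), and Gpr17, a receptor of the same stage, was higher by 0.65 ± 0.14. The proteoglycan Vcan went from 10.9, 11.7 and 10.2 to 15.7, 20.1 and 19.7 (0.73 ± 0.10, adjusted p = 0.000569). Cspg4, the NG2 proteoglycan of precursors and pericytes, was higher by 0.47 ± 0.11, a call that ended without WT animal 4.

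Cholesterol synthesis, which supplies a main lipid of myelin, was raised as well. Of 19 tested genes 12 were called higher and 0 lower, with a median of 0.30. Sqle, the squalene epoxidase, stood at 48.1, 52.8 and 46.2 in WT and 64.3, 66 and 71.8 in treated KO (0.46 ± 0.06, adjusted p = 0.000548). Srebf2, the transcription factor that switches on the pathway, stood at 69.7, 66.2 and 70.3 against 79.1, 79.9 and 82.7 (0.23 ± 0.04, adjusted p = 0.00194), a small difference with little spread. Sc5d and Msmo1, 2 enzymes of the last steps, were higher by 0.54 ± 0.10 and 0.40 ± 0.08. The count was 7 without animals 3 and 24 and 2 with the 6 libraries alone. In untreated KO 4 members were called higher (median 0.23), and on B6;129 0 (median -0.02).

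The letters of a sterol response element, TCACCCCAC or its reverse complement, were found in the promoter windows of 1 of 13 cholesterol genes (7.69%), Hmgcs1, and in 166 of 27025 genes (0.614%). The stretch is shown with these letters in capitals, since Hmgcs1, an early enzyme of the pathway, was among the called genes.
Hmgcs1, chr13:119690174-119690262, plus strand: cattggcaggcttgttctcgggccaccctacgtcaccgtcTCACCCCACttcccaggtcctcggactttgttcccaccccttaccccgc
The letters end 129 bases before the start. Hmgcs1 stood at 386, 340.5 and 279 in WT and 397, 438 and 523 in treated KO (0.44 ± 0.10, adjusted p = 0.0127), and this call ended without WT animal 4 or treated animal 24.

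Pan-neuronal and inhibitory neuron genes were lower in treated cord. Of 20 pan-neuronal and synaptic genes 9 were called lower and 0 higher, 18 lay below 0 and the median was -0.24. Syn2, a protein of synaptic vesicles, stood at 166, 164 and 173 in WT and 141, 139 and 135 in treated KO (-0.28 ± 0.05, adjusted p = 0.00176). Gap43, a protein of growing axon ends, stood at 139, 138 and 156 against 112, 113 and 106 (-0.38 ± 0.08, adjusted p = 0.00576), and Stmn2, which regulates axonal microtubules, at 424, 436 and 458 against 359.8, 367 and 366 (-0.27 ± 0.06, adjusted p = 0.00635). The groups did not overlap in any of the 3. The vesicle calcium sensor Syt4 was lower by the same measure (-0.38 ± 0.06), while the fusion protein Snap25 was not called (-0.16 ± 0.08, adjusted p = 0.155). Without WT animal 4 or treated animal 24 the list had 4 calls in place of 9, and with the 6 libraries alone it had 3.

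In the interneuron list 5 of 22 were called lower and 0 higher, 20 lay below 0 and the median was -0.30. By adjusted p the called genes were, in order, the inhibitory transmitter genes Gad2, Gad1, Slc6a5 and Slc32a1 and the peptide gene Tac2. The lowest difference in the list, -0.87, belonged to a gene that was not called. Gad2, which makes GABA, stood at 45.2, 43.1 and 47.1 in WT and 41.1, 32.3 and 31.2 in treated KO (-0.38 ± 0.08, adjusted p = 0.00903). Gad1, the other GABA-making enzyme, stood at 105, 103 and 118 against 98.2, 82.1 and 75.1 (-0.36 ± 0.08, adjusted p = 0.0104). The glycine transporter Slc6a5 stood at 132, 129 and 159 against 117, 105 and 88.5 (-0.44 ± 0.11, adjusted p = 0.0156). WT animal 4 was the highest WT library in all 3, and without it the calls of Gad1, Slc6a5 and the vesicular GABA transporter Slc32a1 (-0.25 ± 0.07) were lost and the list had 1 call. Without treated animal 24 it had 3, without treated animal 21 it had 8, and with the 6 libraries alone it had 0. Slc17a6, the vesicular glutamate transporter of excitatory cord neurons, missed the threshold (-0.27 ± 0.09, adjusted p = 0.0515). In untreated KO 8 members were called lower (median -0.32), and on B6;129 1 (median -0.16).

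Of the motor neuron genes 0 of 15 were called, and the list ran from -0.21 to 0.28 with a median of 0.00133, of the other sign in 7 of the 21 alternatives. Chat stood at 9.03, 8.81 and 10.8 in WT and 9.45, 7.99 and 9.17 in treated KO (-0.10 ± 0.17, adjusted p = 0.732). The 95% interval of that difference ran from -0.46 to 0.26. The choline transporter Slc5a7 differed by -0.05 ± 0.14, the transcription factors Isl1 and Mnx1 by 0.26 ± 0.19 and -0.07 ± 0.16, and peripherin (Prph) by 0.28 ± 0.12. In untreated KO 1 motor neuron gene was called higher, as was 1 in treated KO when treated animal 21 was left out.

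Of 18 voltage-gated channel genes 3 were called lower (16.7%, beside 7.95% over all genes) and 0 higher (median -0.11). Kcnc1, the potassium channel of fast-spiking neurons, stood at 107, 107 and 116 against 102, 91.6 and 87.6 (-0.23 ± 0.05, adjusted p = 0.00884). The sodium channel gene Scn1a was lower (-0.24 ± 0.07) and lost its call without WT animal 1 or 4 or treated animal 22 or 24. When WT animal 4 or treated animal 22 or 24 was left out the list had 1 call, and without treated animal 21 it had 5.

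Hox genes, which give the cord its segment identity, lay below 0 at 16 of 16 (median -0.23), and 3 were called lower. Hoxb9 stood at 54.6, 64.1 and 62.5 against 46.3, 49.6 and 46.5 (-0.34 ± 0.07, adjusted p = 0.00729) and Hoxb6 was lower by the same measure (-0.44 ± 0.10). The Hoxb8 call (-0.32 ± 0.10) ended in 15 of the 21 alternatives, and 0 Hox genes were called without animals 3 and 24. The medians were -0.30 in untreated KO and -0.18 on B6;129. Whether the dissected segments differed between animals is not given in the sources used here.

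**Figure D4:**
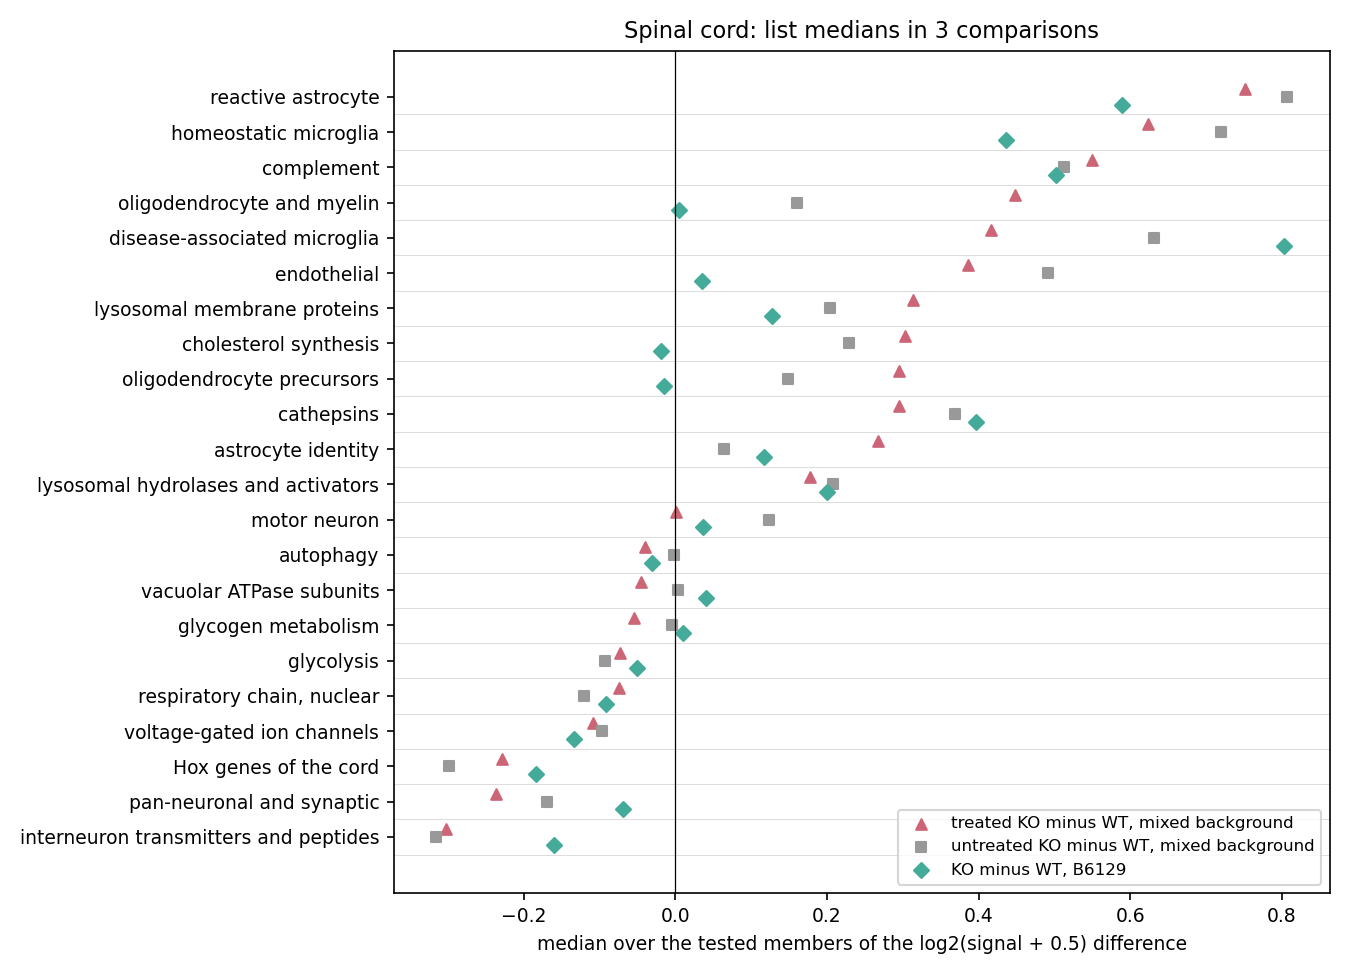
Median difference of each of 22 gene lists in cord on the log2(signal + 0.5) scale for treated KO minus WT (triangles) and untreated KO minus WT (squares) of the mixed background, which share the WT libraries, and for KO minus WT on B6;129 (diamonds). The myelin list lies at 0.45, 0.16 and 0.00 in this order and the reactive astrocyte list at 0.75, 0.81 and 0.59.

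Vessel genes were higher too. Of 13 endothelial genes 6 were called higher and 0 lower, 13 lay above 0 and the median was 0.39. Among them were the barrier transporters Abcb1a (0.60 ± 0.08, adjusted p = 0.00046) and Slco1a4 (0.72 ± 0.12, adjusted p = 0.00159) and the VEGF receptor Flt1 (0.51 ± 0.09, adjusted p = 0.00218). The glucose transporter Slc2a1 stood at 89.8, 64.2 and 93.5 in WT and 108, 149 and 107 in treated KO (0.56 ± 0.13, adjusted p = 0.0119), with WT animal 3 the lowest. Of 9 pericyte and smooth muscle genes 3 were called higher (median 0.42), and 1 without WT animal 4 or treated animal 22. The smooth muscle kinase Mylk stood at 12.8, 11.4 and 10.1 against 17.1, 19.98 and 20.1 (0.72 ± 0.10, adjusted p = 0.000684). In untreated KO 5 endothelial genes were called higher (median 0.49), and on B6;129 0 (0.04).

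Genes of cells at the edge of the cord were counted in the same way. Of 10 Schwann cell genes 2 were called higher (20%) with a median of 0.75 that ran from -0.04 to 1.49 over the alternatives. These were Mal and the cadherin Cdh19 (14.8, 13.5 and 14.7 against 18, 23.9 and 19.8, 0.50 ± 0.11). Of 3 sensory ganglion genes 0 were called. Of 18 fibroblast, meningeal and matrix genes 2 were called higher (11.1%, beside 8.81% over all genes, median 0.37), but 5 without WT animal 3 and 1 without WT animal 1 or 4 or treated animal 21 or 24. Those 2 were Pdgfra, which oligodendrocyte precursors also make (0.45 ± 0.10), and the collagen gene Col1a1 (1.24 ± 0.39, adjusted p = 0.0431), whose call ended without each of these 4. Skeletal muscle genes lay below 0 at 13 of 13 (median -0.40) with 0 called, a median of the other sign in 3 of the 21 alternatives, blood cell genes gave 0 of 8 and choroid plexus genes 0 of 2. Of 10 ependymal genes 1 was called higher (10%), the cilia regulator Foxj1 (0.40 ± 0.09, adjusted p = 0.0107).

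Genes of energy supply differed by list, beside the 8.81% called higher and 7.95% lower over all genes. Glycogen metabolism, the pathway around the missing enzyme, had 1 of 21 called higher, 0 lower and a median of -0.05 (of the other sign in 2 of the 21 alternatives) with a range of -0.23 to 0.30. The called gene, the phosphorylase kinase subunit Phka2 (0.30 ± 0.09), lost its call in 11 of the 21 alternatives, among them those without WT animal 4 or treated animal 22 or 24. In glycolysis 4 of 17 were called lower (23.5%) and 1 higher (median -0.07). Pgam1 stood at 511, 496 and 538 in WT and 449, 423 and 426 in treated KO (-0.25 ± 0.05, adjusted p = 0.00392), Tpi1 was lower by the same measure (-0.23 ± 0.05), and so was the neuronal glucose transporter Slc2a3 (-0.29 ± 0.07). Without WT animal 4 or treated animal 24 the list had 2 lower, and the Slc2a3 call was lost without either of these or treated animal 22. Of 25 nuclear genes of the respiratory chain 4 were called lower (16%, median -0.07), led by Uqcrfs1 (-0.18 ± 0.05), a number that fell to 1 or 2 without any 1 of the 6 libraries. Of 13 mitochondrial genome transcripts 0 were called (median 0.07, of the other sign in 5 of the 21 alternatives).

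Ribosomal protein genes had 3 of 20 called lower (15%, beside 7.95% over all genes, median -0.11). Rps2 stood at 36.4, 36.8 and 39.98 against 27.7, 23.2 and 24.2 (-0.59 ± 0.10, adjusted p = 0.00172). The call of Rpl5 (-0.42 ± 0.13) ended without WT animal 1 or 4 or any 1 of the 3 treated animals. The list had 1 call without WT animal 1 or 4 or treated animal 21 or 22, and ribosomal protein genes have many processed copies that can share reads.

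The number of called stress and daily rhythm genes changed with single libraries. In the glucocorticoid list 3 of 12 were called higher (25%, median 0.50). Pdk4, which spares glucose, stood at 20.7, 15.8 and 16.8 in WT and 35.5, 51.2 and 21.2 in treated KO (0.92 ± 0.25, adjusted p = 0.0216), and Plin4, a lipid droplet protein, at 4.68, 2.64 and 17.8 against 9.8, 49.7 and 28.5 (1.89 ± 0.58). Treated animal 22 was highest in both, and without it 0 of the 12 were called, as without WT animal 3, and 1 without treated animal 24. Among clock genes 2 of 15 were higher and 2 lower (13.3% each way, median 0.20). Per3 stood at 11.5, 11.5 and 9.11 against 13.7, 23 and 13 (0.57 ± 0.17), with treated animal 22 again the highest, and Arntl at 11.5, 11.3 and 11.3 against 10.4, 7.47 and 7.12 (-0.44 ± 0.11). Without treated animal 22 or WT animal 4 the list had 0 higher and 1 lower, without treated animal 24 it had 0 lower, and without treated animal 21 it had 6 higher and 1 lower.

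Genes of the integrated stress response were called higher at 3 of 13 (23.1%) and lower at 1 (7.69%). Without WT animal 3 the counts were 5 and 1. Slc3a2, a chain of amino acid transporters, stood at 62.4, 63.7 and 61.2 against 78.4, 78.4 and 77.1 (0.32 ± 0.04, adjusted p = 0.000548). Psat1, an enzyme of serine synthesis, stood at 187, 168 and 203 against 209, 249 and 235 (0.32 ± 0.07, adjusted p = 0.0106), while untreated KO had 179.8, 179 and 189. The transcription factor Atf5 was higher (0.36 ± 0.11), a call that ended without WT animal 1 or 4 or treated animal 22 or 24. Asns, which makes asparagine, was lower (-0.23 ± 0.06), a call that ended without WT animal 4 or treated animal 22 or 24. The cell cycle inhibitor Cdkn1c stood at 24.7, 27.1 and 16.2 in WT and 36.5, 37.5 and 48.3 in treated KO (0.85 ± 0.16, adjusted p = 0.00383), 1 of 2 called among 13 p53 and cell cycle inhibitor genes, of which 1 was left without WT animal 1, 3 or 4 or treated animal 22. Among 16 heat shock genes Hspb1 was called higher and Hspa4l lower (-0.31 ± 0.08), or 6.25% each way. Cyr61 was the called one (0.89 ± 0.25) among 17 immediate-early genes (5.88%). Over all genes 8.81% were higher and 7.95% lower. The Hspa4l call ended without WT animal 4 or treated animal 22 or 24, and the Cyr61 call without WT animal 3 or 4 or treated animal 24.

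TGF-beta genes are of interest because Ltbp4, carried in its D36 form by both groups, holds latent TGF-beta in the matrix. Of 15 tested 3 were called higher (20%, beside 8.81% over all genes) and 0 lower (median 0.26): Ltbp4, the receptor Tgfbr1 and the ligand Tgfb2. Tgfbr1 stood at 13.9, 15.1 and 13.7 in WT and 22.4, 18.2 and 23.2 in treated KO (0.55 ± 0.08, adjusted p = 0.00069). Tgfb2 was higher by 0.54 ± 0.14 and lost its call without WT animal 4 or treated animal 24.

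The largest single differences lay mostly outside these pathways. Of the 15 largest higher genes 7 had no assigned symbol and 4 were pseudogenes, and of the 15 largest lower 10 and 5. Pseudogenes made up 20 of the 111 genes over 2-fold. Among tested pseudogenes 36 of 380 were called (9.47%), against 2502 of 14132 protein-coding genes (17.7%), but over 2-fold the shares were 5.26% and 0.453%. Tpm3-rs7, a copy related to tropomyosin 3, stood at 0.287, 0.447 and 0.205 in WT and 51.4, 26.2 and 30.2 in treated KO (5.44 ± 0.21, adjusted p = 1.67e-09). In untreated KO it differed from WT by 5.20, on B6;129 by 0.15, and in treated quadriceps by 4.20. Its reads may be shared with other tropomyosin copies, so its level is uncertain.

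Kif24, a kinesin that controls cilia, stood at 1.5, 1.92 and 0.928 in WT and 10.4, 6.94 and 10.5 in treated KO (2.34 ± 0.22, adjusted p = 5.15e-05). Beside this difference stood 2.62 in untreated KO, -0.37 on B6;129 and 2.08 in treated quadriceps. Sfi1, a centrosome protein gene, stood at 11, 9.79 and 10.5 against 55.2, 60.1 and 23 (1.98 ± 0.25, adjusted p = 0.000425), with 2.83 in untreated KO. Zfp979, a zinc finger gene, stood at 1.3, 1.17 and 1.21 against 5.71, 4.48 and 4.18 (1.61 ± 0.18, adjusted p = 0.000159), with 0.16 in quadriceps. These 4 genes did not overlap between the groups in any library.

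Some genes had no reads in a whole group. BC002163 stood at 59.4, 31.7 and 54.2 in WT and had 0 reads in all treated and all untreated KO libraries of that background (adjusted p = 0.000405). Glns-ps1, a glutamine synthetase pseudogene, stood at 4.84, 3.99 and 11.1 in WT, had 0 reads in all treated libraries and 4.77, 0.0150 and 0.0184 in untreated KO, where the values near 0 again mean 0 reads (adjusted p = 0.00243). The predicted gene Gm15501 had 0 reads in WT and stood at 123, 223 and 1.42 in treated KO, so treated animal 24 was far below the others (adjusted p = 0.00357). A count of 0 reads allows a signal of up to 0.0865 to 0.108 in these libraries, the value of 3 reads. Fblim1, a linker of filamin at cell contacts, stood at 3.8, 4.51 and 4.61 against 0.751, 0.685 and 2.03 (-1.63 ± 0.25, adjusted p = 0.001), against 0.44 in quadriceps.

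Transcripts made by liver appeared in some KO cords. Alb, serum albumin, stood at 0.219, 0.101 and 0.110 in WT, 2.74, 12.9 and 0.413 in treated KO and 2.93, 0.0150 and 0.424 in untreated KO (2.41 ± 0.75, adjusted p = 0.0406). Mup14, a urinary protein of liver, stood at 0.0169, 0.101 and 0.0472, 1.97, 6.66 and 0.987 and 3.31, 0.105 and 0.0921 in these groups (adjusted p = 0.0157). The Alb call ended without WT animal 1, 3 or 4 or treated animal 21 or 22, the Mup14 call without treated animal 22, and treated animal 22 was the highest in both. Untreated animal 6 lay above treated animal 21 in both genes.

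The surroundings of Gaa on chromosome 11 held more raised than lowered genes. Within 5 Mb of it, 35 of 168 tested genes were called (20.8%), 30 higher (17.9%) and 5 lower (2.98%), where all tested genes gave 8.81% higher and 7.95% lower. Within 10 Mb 33 of 196 were higher and 6 lower (16.8% and 3.06%). Within 20 Mb 82 of 347 were called (23.6%), 52 higher and 30 lower (15% and 8.65%). The excess of raised genes was thus weaker once genes 10 to 20 Mb away were included. Gfap, Grn and Naglu, called higher above, lie in that part, at -16.4, -16.8 and -18.2 Mb (negative: before Gaa on the chromosome). Beyond 20 Mb on the same chromosome 66 of 875 were higher and 89 lower (7.54% and 10.2%). Ttyh2, a membrane protein of glia, stood at 59.5, 52.4 and 53 in WT and 91.7, 101 and 96.9 in treated KO (0.81 ± 0.07, adjusted p = 3.86e-05), with 0.54 in untreated KO, -0.07 on B6;129 and -0.87 in treated quadriceps.

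Of the other genes there, Npb, a neuropeptide, stood at 4.24, 2.52 and 2.0 against 6.83, 6.91 and 8.45 (1.25 ± 0.20), and Smim5 at 1.6, 1.6 and 1.59 against 3.62, 3.6 and 5.15 (1.12 ± 0.19). The GTPase gene Rab37 (0.59 ± 0.11), the ciliary dynein Dnaic2 (0.73 ± 0.14), Lrrc45 (0.46 ± 0.08) and the kinase Aatk (0.25 ± 0.05) were higher. Pgs1, which starts the synthesis of cardiolipin, was the lower one of those named (97.2, 92.8 and 90.7 against 76.5, 81.9 and 74.1, -0.27 ± 0.05, adjusted p = 0.00348). Genotype at Gaa and the strain of origin of the DNA around it cannot be told apart by these groups.

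**Figure D5:**
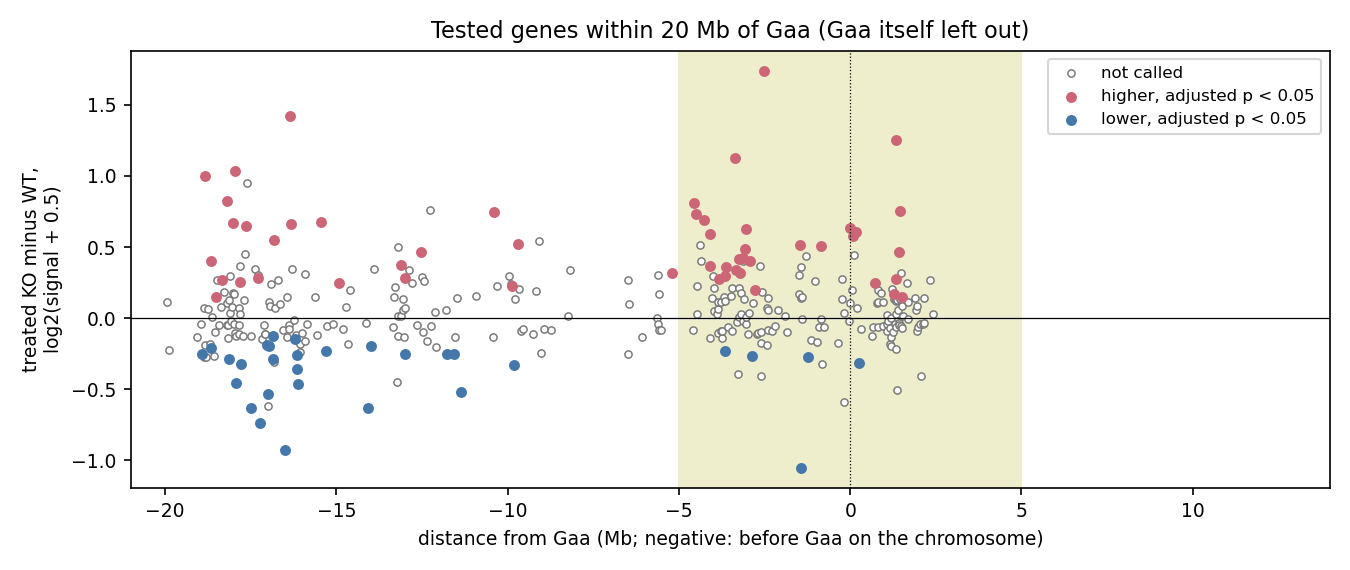
Difference of treated KO minus WT cord, log2(signal + 0.5), for the tested genes within 20 Mb of Gaa, against the distance from it in Mb, with Gaa left out and the 5 Mb either side shaded. Called genes are filled; in the shaded part 30 are higher and 5 lower.

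Other parts of the genome also held many called genes. Of 265 windows of 10 Mb with at least 10 tested genes, the highest share was in the window from 70 to 80 Mb of chromosome 3, with 7 of 15 genes (46.7%). It was followed by 60 to 70 Mb of chromosome 4, with 11 of 26 (42.3%). In the first, Serpini1, the neuronal protease inhibitor neuroserpin, stood at 78.1, 75.8 and 95 in WT and 58, 59.6 and 54.4 in treated KO (-0.52 ± 0.07, adjusted p = 0.000548), and the Golgi protein gene Golim4 was higher (0.53 ± 0.10). In the second, Alad, an enzyme of heme synthesis, stood at 21.6, 37.1 and 17.9 against 48.6, 57.3 and 57.6 (1.14 ± 0.22, adjusted p = 0.00424), with 1.38 in quadriceps. Its neighbours Hdhd3 (1.05 ± 0.21) and the copper transporter gene Slc31a2 (0.47 ± 0.09) were higher, and Cdc26, of the anaphase-promoting complex, was lower (-0.36 ± 0.06). The next 2 windows were level at 33.3%, 10 to 20 Mb of chromosome 11 with 7 of 21 genes and the first 10 Mb of chromosome 3 with 4 of 12. From 130 to 140 Mb of chromosome X, a window singled out after its values were seen, 17 of 53 genes were called (32.1%), 16 of them lower.

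Treated KO was also set beside untreated KO, where 0 genes passed the adjusted threshold. The list medians of treated minus untreated KO were -0.15 for resting microglia, -0.21 for disease-associated microglia, -0.11 for cathepsins, -0.0072 for hydrolases and -0.00011 for lysosomal membrane proteins. The genes given next, with 95% intervals, were chosen after their values were seen. Gfap differed between treated and untreated KO by 0.02 (-0.26 to 0.30), while both stood above WT by 1.42 ± 0.13 and 1.40. Trem2 was -0.60 (-0.90 to -0.30, adjusted p = 0.136), Tyrobp -0.61 (-0.91 to -0.32, adjusted p = 0.12) and C1qa -0.50 (-0.76 to -0.25, adjusted p = 0.144). For Ctsd the difference was -0.38 (-0.55 to -0.21, adjusted p = 0.1), and for Grn -0.35 (-0.51 to -0.19, adjusted p = 0.1). The unadjusted intervals of these 5 genes lie below 0, and those of Mal, Cldn11 and Fa2h above lie over 0, but none of the 8 passed correction. With treated animal 24 left out this comparison called 35 genes, and 20 without treated animal 21.

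Quadriceps of the same animals gave fewer calls. There 421 of 14113 genes were called between treated KO and WT (2.98%), and the difference of the 2 tissues' effects, with the animal as a block, was called at 269 of 13187 genes (2.04%), 135 higher in cord (1.02%) and 134 lower (1.02%). Of the named genes, Sqle differed by 0.46 ± 0.06 in cord and -0.77 in quadriceps (cord minus quadriceps 1.23, adjusted p = 0.0273). Scarb2 differed by 0.50 ± 0.05 and -0.03 (0.53, adjusted p = 0.0447), and Lamp2 by 0.39 ± 0.05 and -0.12 (0.51, adjusted p = 0.0273). Ttyh2 was higher in cord and lower in quadriceps (1.68, adjusted p = 0.00225). Gfap, with 0.45 in quadriceps, where it is barely expressed, was not called for the difference of tissues (0.97, adjusted p = 0.186). The list medians in quadriceps were 0.02 for lysosomal membrane proteins, -0.10 for cholesterol synthesis and -0.08 for reactive astrocyte genes. Without treated animal 22 the difference of tissues was called at 12 genes, without WT animal 4 at 19, and without the block at 605. Which cord library belongs to which treated quadriceps rests on the animal numbers in the sample titles.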

How the data were processed

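PolyA RNA of whole spinal cord and quadriceps was read from 1 end (61 bases, Illumina HiSeq2500, NEBNext Ultra kit), per the labels' protocols. Per the submitters' processing notes the authors worked on GRCm38 with RSEM, cutadapt, limma and edgeR, with versions and settings not given in the sources used here. The deposited signal is a normalized count on a linear scale for 17420 genes: every value equals whole reads plus 0.5 over a scaled library size, and 100% of values gave whole reads within 0.001. Treated cord columns were joined to samples by the animal number in the titles, since the descriptions repeat a column name and give another that the table does not hold. The group is the same under any such joining, but the pairing of treated cords with quadriceps rests on it. Of the gene IDs, 17388 (99.8%) were found in GENCODE vM21, used for positions and gene types.

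Signal was analysed as log2(signal + 0.5) with limma 3.58.1 (R 4.3.3, moderated tests with an intensity trend), after keeping genes with signal 1 or more in 3 or more cord libraries. Adjustment was by Benjamini-Hochberg over all tested genes. For the difference of tissues the animal was the block, because the titles give both tissues the same animal numbers. WT and treated animals share no number and were not paired. Recovered reads were also tested with edgeR 4.0.16 and DESeq2 1.42.0. The 44 gene lists (702 entries), the comparisons and the alternatives were chosen with earlier results of these data known. Named were Gaa and Ltbp4, the 15 largest called differences in each direction without overlap between groups, called genes near Gaa and in the 3 densest windows, up to 4 called members of each list with the smallest adjusted p, and the 5 largest tissue differences each way. Other list members named in the text were chosen after their values were seen. Some genes that the rule names are not reported here. On simulated reads for treated KO against WT in cord (15838 genes, 3 runs, 200 genes changed in each), 57.3% of 1.5-fold and 76% of 2-fold changes were found, and 22 of 422 calls (5.21%) were false. The data gave 2654 calls, many more than the 200 genes changed in a run, so these simulated shares need not hold for them. Limits of 0 reads cover counting error only.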

Additional observations from a re-analysis of the deposited data

Results flagged for a closer look

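The difference between treated KO and WT was larger or smaller in cord than in quadriceps, by the test of the difference itself (limma with the animal as a block), at 22 named genes. Values are cord minus quadriceps on the log2(signal + 0.5) scale. The largest negative ones were the matrix gene Frem2 (-2.86), the nuclear import factor Kpna2 (-2.13), the neuronal transporter Slc6a17 (-2.12), the vesicle protein Doc2b (-2.08) and Fblim1 (-2.07), followed by the clock gene Cry2 (-0.79) and the potassium channel Kcnc1 (-0.61). In quadriceps alone Frem2 was higher in treated KO by 2.61, Kpna2 by 2.89 and Cry2 by 0.60. Positive were the lysosomal genes Lamp2 (0.51) and Scarb2 (0.53), the cholesterol genes Sc5d (0.64) and Sqle (1.23), and Tgfbr1 (0.69), Csf1 (1.00), the leukocyte protein Plek (1.28), Zfp979 (1.44), Tpm3-rs7 (1.24) and Ttyh2 (1.68). The cytokine inhibitor Socs3 was the largest (2.46), with -2.02 in quadriceps. The rest have no assigned symbol: Gm26880 (1.93), Gm48795 (2.20), AI506816 (2.23) and Gm20186 (2.44). Leaving out treated animal 22 leaves 12 genes called in the whole comparison and leaving out WT animal 4 leaves 19, in place of 269. No group has 4 or more samples, so single libraries were not tested as outliers.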

How the results depend on the processing

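Of 177 named genes called between treated KO and WT cord, 69 were called under each of the 21 alternatives that tested them. Over all 196 named genes and 4094 values, 589 lost their call, 0 changed sign with a call, and 3481 kept their side of the threshold. The 2654 calls became 531 with the 6 libraries alone, 1150 with the 9 of the mixed background, 111 with a fold over 2, and 1462 (without WT animal 4) to 2598 when 1 library was left out. Other alternatives gave 1838 to 2864. Untreated KO against WT gave 707 with the 9 libraries and 918 to 2318 leaving out 1, in place of 2061. Treated against untreated KO gave 3 with a pseudocount of 2, 4 with a minimum signal of 4, 2 with edgeR under either scaling, 155 with DESeq2, 0 to 35 leaving out 1 library (4 without WT animal 3, 9 without WT animal 4), and, chosen after seeing the data, 33 without animals 3 and 24, 58 without animals 21 and 22 and 4 with Schwann cell level as a covariate. KO against WT on B6;129 gave 386 with DESeq2 in place of 183. The tissue difference, paired by animal in the main fit, gave 605 genes with no replicate block (239 higher, 366 lower) in place of 269, and 12 to 285 leaving out 1 animal (166 without WT animal 1, 64 without treated animal 24). Treated KO and WT share no replicate numbers, so no other paired fit applies. The causes of these changes were not tested. Fits of fewer libraries have fewer degrees of freedom and also take the spread from fewer animals. With the 6 libraries alone 0 genes were called lower in the voltage-gated channel, glycolysis and nuclear respiratory chain lists. Under the stricter filter no choroid plexus gene was left. With 3 animals a group, the simulated share of 1.5-fold changes found was 57.3%, so smaller differences can be missed. Those runs changed 200 genes each, fewer than the 2654 called here, so that share need not apply to the data.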
